A study of Rattus norvegicus with 24 samples.

Results

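NF-κB is a family of transcription factors built from paired subunits. The genes described here are 4 of its subunits (Nfkb1, Nfkb2, Rela, Relb) and 4 members of the IκB family (Nfkbia, Nfkbib, Nfkbie, Nfkbiz). With them are Tnfaip3 and Birc3, which encode regulators upstream of NF-κB. All 10 genes were chosen by name, and each was read through every probe set that the array annotation gives to that gene alone. Of the 10 genes, 9 had such a probe set and 1, Nfkbie, was not named in the annotation used here. Nfkbiz had 2 probe sets, so 10 probe sets were followed among 31042 tested, and 9 genes among 14217 named by a single symbol. The levels were measured in rat INS-1E cells, an insulinoma line that makes insulin and stands in for pancreatic beta cells, on 24 Affymetrix arrays in 8 groups of 3. The cytokine and BRD0476 group received IL-1β at 10 ng/ml, IFN-γ at 50 ng/ml and TNF-α at 25 ng/ml together with the small molecule BRD0476 at 10 µM. The cytokine and DMSO group received the same cytokines with the solvent DMSO, the BRD0476 group the compound without cytokines, and the DMSO group the solvent alone. Each of these 4 treatments was sampled at 6 h and at 12 h. All levels below are log2 intensities, and a difference of 1 on this scale is a doubling.

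In resting cells, IκB proteins hold NF-κB dimers in the cytoplasm. IL-1β and TNF-α lead a kinase complex to mark IκB for destruction, the dimers enter the nucleus, and among the genes they switch on are those of their own inhibitors, so that the pathway limits itself. IFN-γ signals instead through JAK kinases and STAT factors. In beta cells exposed to this cocktail, NF-κB drives chemokines, adhesion molecules and survival genes, and BRD0476 is known as a compound that lowers beta-cell death under such cytokines.

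The promoters of 4 genes whose levels carry the results are printed first, because each holds the letters that NF-κB dimers recognise. They are windows of 300 bases (250 before and 50 after the start site), read 5′ to 3′ on the gene's strand, from RefSeq on the build GRCr8. Capitals mark each match to the 10-letter κB consensus on either strand.
Nfkbia, chr6:78597023-78597322, minus strand: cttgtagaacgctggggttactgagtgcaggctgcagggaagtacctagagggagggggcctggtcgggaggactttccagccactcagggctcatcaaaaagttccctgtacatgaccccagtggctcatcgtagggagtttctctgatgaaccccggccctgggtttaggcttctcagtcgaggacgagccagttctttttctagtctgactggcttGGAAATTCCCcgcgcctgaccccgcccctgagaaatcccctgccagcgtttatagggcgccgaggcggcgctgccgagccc
Nfkbiz, chr11:58251471-58251770, plus strand: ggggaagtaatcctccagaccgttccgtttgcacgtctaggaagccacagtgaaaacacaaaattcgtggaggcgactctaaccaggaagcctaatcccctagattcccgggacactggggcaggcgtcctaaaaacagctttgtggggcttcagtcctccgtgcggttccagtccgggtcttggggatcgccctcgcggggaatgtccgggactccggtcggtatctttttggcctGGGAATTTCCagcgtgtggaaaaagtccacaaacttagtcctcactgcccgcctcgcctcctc
Nfkb2, chr1:255108124-255108423, plus strand: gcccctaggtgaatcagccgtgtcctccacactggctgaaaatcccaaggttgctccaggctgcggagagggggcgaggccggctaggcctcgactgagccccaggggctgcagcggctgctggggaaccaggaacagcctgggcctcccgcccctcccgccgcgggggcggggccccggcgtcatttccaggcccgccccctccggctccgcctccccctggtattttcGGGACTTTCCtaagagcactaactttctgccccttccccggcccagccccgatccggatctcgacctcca
Tnfaip3, chr1:15543930-15544229, minus strand: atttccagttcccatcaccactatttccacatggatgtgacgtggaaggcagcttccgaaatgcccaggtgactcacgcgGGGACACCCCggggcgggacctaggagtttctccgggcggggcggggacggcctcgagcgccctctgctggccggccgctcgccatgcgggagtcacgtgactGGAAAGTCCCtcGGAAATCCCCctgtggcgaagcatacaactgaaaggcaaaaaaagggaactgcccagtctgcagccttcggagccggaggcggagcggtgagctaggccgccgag
The match began at base -31 from the start site in Nfkbia, -13 in Nfkbiz and -20 in Nfkb2, and Tnfaip3 held 3, at -170, -67 and -55. In Nfkbia and in the last pair of Tnfaip3 the consensus read on the opposite strand. The table held a promoter for 8 of the 10 genes, all but Relb and Birc3, and 6 of these 8 held at least 1 match (8 matches in all), including Nfkb1 at +4 and Nfkbie at -164. None was found in Nfkbib or Rela. Among all 33469 promoters of this length, 4.183% held the consensus. The core of the GAS element bound by STAT dimers, TTCNNNGAA on either strand, was in 0 of the 8 and in 8.874% of all promoters. A match describes letters in these windows, and its absence says only that they are not in this window.

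**Figure D1:**
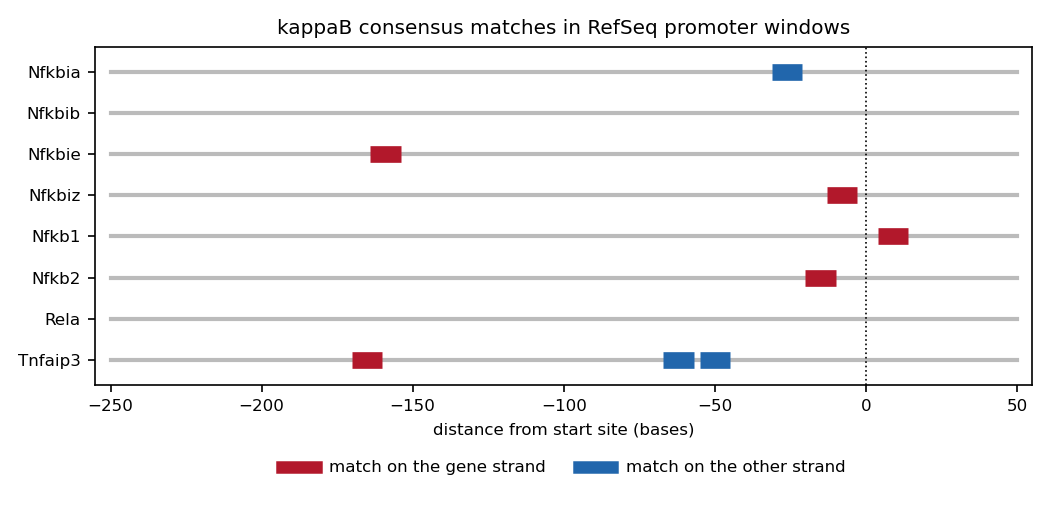
Position of κB consensus matches along the 300-base RefSeq promoter windows of the 8 genes with an entry, in bases from the start site (dotted line). Red blocks are matches on the gene strand and blue blocks matches on the other strand. Tnfaip3 holds 3 matches, Nfkbib and Rela none, and those of Nfkbia, Nfkbiz, Nfkb1 and Nfkb2 lie within 31 bases of the start site.

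The arrays were alike in scale, with medians of 5.49 to 5.57, and arrays of one group correlated with r of 0.992 to 0.998. Of 8 beta-cell markers measured, 7 lay above the upper quartile of all values (8.07) in every group, with Nkx6-1 the exception, while all 7 leukocyte and all 6 exocrine and ductal markers lay below the median (5.52). Gcg, the glucagon gene, was high at 9.33 to 10.54 over the group means, and Sst, Ppy and Ghrl were below the median. Pdgfra and Kdr, markers of fibroblasts and endothelium, reached 6.58 and 6.46, and the other 8 markers of those lists stayed below the median. Several of these lists moved with the treatments, and their part in the results below was not tested. The log2 of the summed fibroblast markers ran from 6.99 to 7.11 with cytokines and BRD0476, 6.51 to 6.73 with cytokines and DMSO, and 7.23 to 7.48 with DMSO at 6 h, and that of the beta-cell markers from 16.44 to 16.46 with cytokines and BRD0476, 16.23 to 16.25 with cytokines and DMSO, and 16.38 to 16.53 with DMSO. At 6 h the summed endothelial markers ran from 6.58 to 6.75 with cytokines and BRD0476, 5.89 to 6.05 with cytokines and DMSO, and 6.48 to 6.77 with DMSO, and those of other islet endocrine cells from 10.21 to 10.27 with cytokines and BRD0476, 9.36 to 9.48 with cytokines and DMSO, and 10.20 to 10.49 with DMSO. A sign of RNA quality moved too: the GAPDH control probe sets read 0.07 to 0.22 higher at the 3′ than at the 5′ end in cytokine groups and -0.10 to 0.08 in the others. The labels do not say whether the 3 arrays of a group came from separate cultures, so p-values measure the spread between arrays. In bulk RNA, fewer cells with a transcript and less of it per cell cannot be told apart.

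A pair of arrays stood out among the measured genes. In both cytokine and DMSO groups, replicate 3 was the lowest of its group for the same 6 genes (Nfkb1, Nfkb2, Nfkbib, Nfkbiz, Rela, Relb) and the highest for the same 3 (Birc3, Nfkbia, Tnfaip3). Over all probe sets, the deviations of these 2 arrays from their group means correlated with r = 0.64, against 0.36 and 0.31 for replicates 1 and 2. The 3′ minus 5′ difference of the actin control was 1.32 in replicate 3 at 6 h, against 1.709 and 1.713 in replicates 1 and 2. At 12 h it was 1.748, against 1.711 and 1.725. Its part in these deviations was not tested. Results that change when both are left out, an alternative chosen after seeing the data, are given with and without them. Leaving them out raises the cytokine and DMSO means of the 6 genes and lowers those of the 3. At a single time, the direction of such a shift was thus set by the choice of arrays.

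Cytokines in DMSO raised 8 of the 9 measured genes by at least 1.60 on the log2 scale at both times, and Rela by 0.55 and 0.50. In the fit over all probe sets, 9 of 10 probe sets were called higher at 6 h and 9 of 10 at 12 h, where 18.2% and 12.5% of all probe sets were called higher and 41.6% and 35.3% were called in either direction. The exception was the second Nfkbiz probe set. The median change over the 10 was 2.57 at 6 h and 2.99 at 12 h, beside -0.01 and -0.02 over all probe sets.

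**Figure D2:**
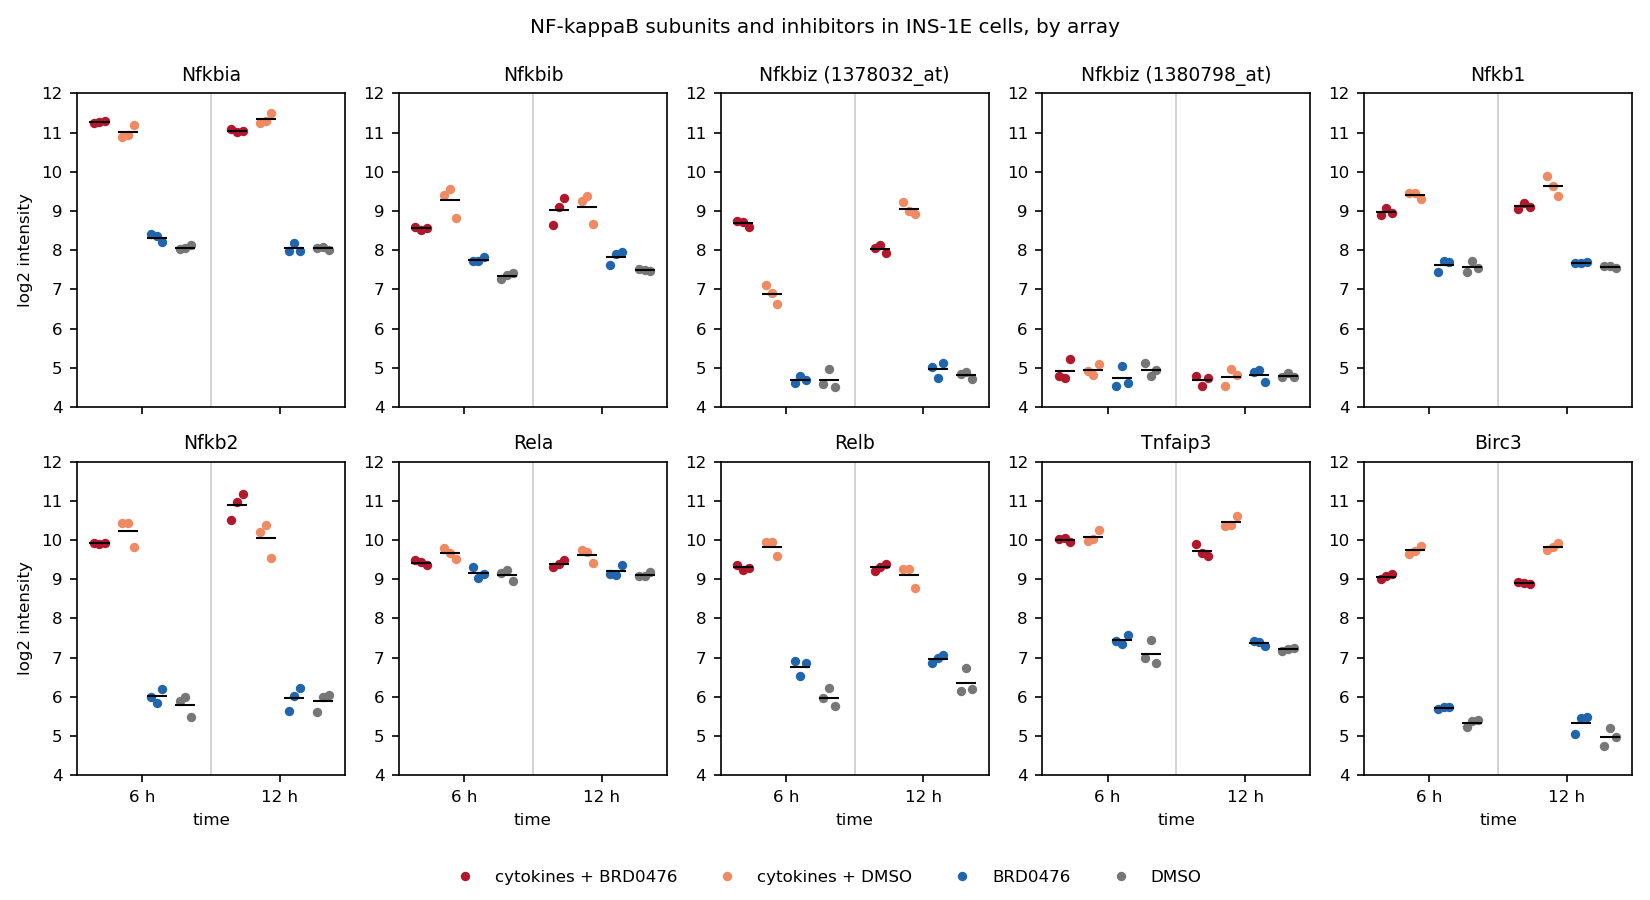
log2 intensity of the 10 probe sets on each of 24 arrays. Points are arrays, black lines group means, and the 4 treatments are ordered within 6 h and 12 h as in the legend. All probe sets but Rela and the second Nfkbiz set stand clearly higher with cytokines, and Nfkbiz changes the order of its cytokine groups between 6 and 12 h.

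Among the subunits, Nfkb2, which encodes p100, both an inhibitor of dimers and the precursor of p52, rose the most with cytokines. At 6 h it read 9.91, 9.90 and 9.92 with cytokines and BRD0476, 10.43, 10.44 and 9.83 with cytokines and DMSO, 6.00, 5.83 and 6.19 with BRD0476 and 5.88, 5.99 and 5.48 with DMSO. At 12 h it read 10.52, 10.96 and 11.18 with cytokines and BRD0476, 10.21, 10.39 and 9.54 with cytokines and DMSO, 5.64, 6.03 and 6.23 with BRD0476 and 5.60, 5.99 and 6.05 with DMSO. Every array with cytokines lay more than 3 units above every array without. The change in DMSO was 4.45 ± 0.22 (adjusted p = 2.24e-13) at 6 h and 4.16 ± 0.22 (adjusted p = 9.18e-13) at 12 h, or 21.8-fold and 17.9-fold. Replicate 3 of each cytokine and DMSO group was the low one.

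Relb, the partner of p52 in the non-canonical arm of the pathway, rose with cytokines, and with cytokines and DMSO it stood lower at 12 h than at 6 h (means of 9.10 and 9.83), while with cytokines and BRD0476 it averaged 9.30 at both times. Its 6 h levels were 9.35, 9.24 and 9.30 with cytokines and BRD0476, 9.95, 9.95 and 9.58 with cytokines and DMSO, 6.91, 6.53 and 6.86 with BRD0476 and 5.96, 6.22 and 5.76 with DMSO. The 12 h levels of Relb were 9.21, 9.31 and 9.38 with cytokines and BRD0476, 9.27, 9.26 and 8.77 with cytokines and DMSO, 6.86, 6.98 and 7.05 with BRD0476 and 6.13, 6.73 and 6.20 with DMSO. Arrays with and without cytokines did not overlap at either time. The rise in DMSO was 3.85 ± 0.16 (adjusted p = 1.23e-14) at 6 h and 2.75 ± 0.16 (adjusted p = 5.07e-12) at 12 h. Its cytokine effect in DMSO was smaller at 12 h than at 6 h, with a difference of -1.10 ± 0.22 (adjusted p = 0.000893).

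Nfkb1, which encodes p105 and its product p50, read 8.90, 9.07 and 8.96 with cytokines and BRD0476, 9.47, 9.45 and 9.30 with cytokines and DMSO, 7.45, 7.74 and 7.69 with BRD0476 and 7.44, 7.73 and 7.54 with DMSO at 6 h. Its 12 h levels were 9.05, 9.21 and 9.10 with cytokines and BRD0476, 9.91, 9.64 and 9.39 with cytokines and DMSO, 7.67, 7.68 and 7.71 with BRD0476 and 7.60, 7.59 and 7.55 with DMSO. The groups with cytokines were the high ones, and with cytokines the DMSO arrays all lay above the BRD0476 arrays at both times. The rise with cytokines in DMSO was 1.83 ± 0.11 (adjusted p = 3.88e-12) at 6 h and 2.07 ± 0.11 (adjusted p = 6.93e-13) at 12 h.

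Rela, which encodes p65, the subunit with the activation domain used in the canonical arm, was high without cytokines and moved least. At 6 h it read 9.48, 9.43 and 9.35 with cytokines and BRD0476, 9.79, 9.68 and 9.53 with cytokines and DMSO, 9.30, 9.02 and 9.12 with BRD0476 and 9.15, 9.23 and 8.95 with DMSO. At 12 h it read 9.32, 9.38 and 9.49 with cytokines and BRD0476, 9.74, 9.70 and 9.41 with cytokines and DMSO, 9.14, 9.12 and 9.35 with BRD0476 and 9.08, 9.09 and 9.18 with DMSO. With DMSO the cytokine arrays lay above those without cytokines at both times, by 0.55 ± 0.10 (adjusted p = 0.000103) and 0.50 ± 0.10 (adjusted p = 0.000415), which is 1.47-fold and 1.41-fold.

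Nfkbia encodes IκBα, the inhibitor best known for being remade after each wave of NF-κB activity. Its 6 h levels were 11.24, 11.28 and 11.31 with cytokines and BRD0476, 10.90, 10.95 and 11.19 with cytokines and DMSO, 8.40, 8.36 and 8.21 with BRD0476 and 8.03, 8.05 and 8.12 with DMSO. The 12 h levels of Nfkbia were 11.10, 11.01 and 11.04 with cytokines and BRD0476, 11.25, 11.29 and 11.51 with cytokines and DMSO, 7.98, 8.18 and 7.98 with BRD0476 and 8.07, 8.09 and 8.02 with DMSO. All 12 arrays with cytokines lay between 10.90 and 11.51 and all 12 without between 7.98 and 8.40. In DMSO its cytokine effect was larger at 12 h than at 6 h by 0.34 ± 0.12 (adjusted p = 0.048). That call was lost without any 1 of 9 of the 12 arrays of the 4 groups, each of the 6 DMSO arrays among them, and without cytokine and DMSO replicates 1 and 2 at 6 h or replicate 3 at 12 h (0.26 to 0.36, adjusted p = 0.0587 to 0.136), with the 12 compared arrays alone (adjusted p = 0.121) with quantile normalization (0.32, adjusted p = 0.0994) and with the replicate number as a block over all arrays (adjusted p = 0.0589). With the block on the 6 cytokine and DMSO arrays alone, an alternative chosen after seeing the data, the call held (adjusted p = 0.0116).

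Nfkbib encodes IκBβ, which is degraded and remade more slowly than IκBα. It read 8.58, 8.53 and 8.58 with cytokines and BRD0476, 9.41, 9.57 and 8.83 with cytokines and DMSO, 7.73, 7.74 and 7.82 with BRD0476 and 7.27, 7.36 and 7.41 with DMSO at 6 h. Its 12 h levels were 8.65, 9.10 and 9.34 with cytokines and BRD0476, 9.25, 9.38 and 8.66 with cytokines and DMSO, 7.62, 7.91 and 7.95 with BRD0476 and 7.52, 7.49 and 7.46 with DMSO. Cytokine arrays lay above the rest at both times, with replicate 3 of each cytokine and DMSO group 0.4 or more below its group mean. The rise in DMSO was 1.92 ± 0.18 (adjusted p = 8.86e-09) at 6 h and 1.60 ± 0.18 (adjusted p = 2.23e-07) at 12 h.

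Nfkbiz encodes IκBζ, a nuclear member that is itself induced and helps NF-κB switch on a set of secondary genes. Its probe set 1378032_at read 8.76, 8.72 and 8.61 with cytokines and BRD0476, 7.10, 6.91 and 6.64 with cytokines and DMSO, 4.62, 4.79 and 4.69 with BRD0476 and 4.58, 4.97 and 4.51 with DMSO at 6 h. At 12 h it read 8.06, 8.12 and 7.93 with cytokines and BRD0476, 9.23, 8.99 and 8.93 with cytokines and DMSO, 5.02, 4.75 and 5.13 with BRD0476 and 4.84, 4.89 and 4.72 with DMSO. Without cytokines every array was below the median of all values. In DMSO it rose by 2.20 ± 0.13 (adjusted p = 3.52e-12) at 6 h and 4.23 ± 0.13 (adjusted p = 4.57e-17) at 12 h, and the difference between the 2 effects was 2.04 ± 0.18 (adjusted p = 3.39e-08). Its other probe set, 1380798_at, had group means of 4.69 to 4.94, below the median of all values in every group, and did not pass the test in any comparison. With the mean of both probe sets, the rise of Nfkbiz in DMSO was 1.10 (adjusted p = 1.27e-10) at 6 h and 2.11 (adjusted p = 2.62e-15) at 12 h, a difference of 1.01 (adjusted p = 6.55e-07).

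Tnfaip3 encodes A20, a ubiquitin-editing enzyme that damps signalling from TNF and IL-1 receptors. It read 10.01, 10.04 and 9.95 with cytokines and BRD0476, 9.97, 10.02 and 10.27 with cytokines and DMSO, 7.41, 7.35 and 7.56 with BRD0476 and 6.98, 7.45 and 6.85 with DMSO at 6 h. The 12 h levels of Tnfaip3 were 9.89, 9.67 and 9.58 with cytokines and BRD0476, 10.36, 10.37 and 10.61 with cytokines and DMSO, 7.42, 7.40 and 7.29 with BRD0476 and 7.18, 7.22 and 7.25 with DMSO. Cytokine arrays stood above all others at both times, and the 2 cytokine groups were apart at 12 h and overlapped at 6 h. The rise in DMSO was 2.99 ± 0.12 (adjusted p = 9.31e-15) at 6 h and 3.23 ± 0.12 (adjusted p = 2.64e-15) at 12 h.

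Birc3 encodes cIAP2, a ubiquitin ligase of the TNF receptor complex that restrains cell death and the non-canonical arm. It read 8.99, 9.08 and 9.12 with cytokines and BRD0476, 9.65, 9.71 and 9.83 with cytokines and DMSO, 5.68, 5.73 and 5.72 with BRD0476 and 5.22, 5.37 and 5.41 with DMSO at 6 h. At 12 h it read 8.93, 8.91 and 8.88 with cytokines and BRD0476, 9.74, 9.82 and 9.91 with cytokines and DMSO, 5.05, 5.46 and 5.49 with BRD0476 and 4.75, 5.21 and 4.97 with DMSO. The cytokine and DMSO arrays were the highest at both times, with no overlap with any other group at that time. The rise in DMSO was 4.39 ± 0.11 (adjusted p = 2.41e-18) at 6 h and 4.85 ± 0.11 (adjusted p = 4.22e-19) at 12 h, 21-fold and 28.8-fold. The 12 h effect was larger by 0.45 ± 0.15 (adjusted p = 0.0404), a call lost with array weights (0.37, adjusted p = 0.171), with the 12 compared arrays alone (adjusted p = 0.0777), without both replicate 3 arrays with cytokines and DMSO (0.46, adjusted p = 0.07) and without any 1 of 8 arrays (0.34 to 0.46, adjusted p = 0.0626 to 0.135). Those 8 were replicates 1 and 2 of the 6 h and replicates 2 and 3 of the 12 h cytokine and DMSO group, and replicates 2 and 3 of the 6 h and 1 and 3 of the 12 h DMSO group. With cytokines and DMSO, Birc3 averaged 9.73 at 6 h and 9.82 at 12 h. With DMSO it averaged 5.34 and 4.98, both below the median of all values, so most of the larger effect came from the lower DMSO level.

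The change of the cytokine effect with time was called for 4 of 10 probe sets, where 20.5% of all probe sets were called. Nfkbiz, Birc3 and Nfkbia had the larger effect at 12 h and Relb at 6 h, that of Birc3 mostly through a lower level in DMSO without cytokines. In DMSO without cytokines, 0 of the 10 probe sets differed between 12 and 6 h in limma, and 2 (Birc3 at -0.36 and Relb at 0.38) had an unadjusted p under 0.05. The share called over all probe sets was not computed for this comparison, so the count cannot be set against it.

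With BRD0476 present, cytokines still raised the same 8 genes. Called higher were 8 of 10 probe sets at 6 h and 8 of 10 at 12 h, where 6.72% and 6.40% of all probe sets were called higher and 14.0% and 18.4% in either direction. The largest rises were 3.99 ± 0.13 (adjusted p = 8.32e-16) for Nfkbiz and 3.91 ± 0.22 (adjusted p = 1.1e-11) for Nfkb2 at 6 h, and 4.92 ± 0.22 (adjusted p = 1.73e-13) for Nfkb2 and 3.58 ± 0.11 (adjusted p = 2.85e-16) for Birc3 at 12 h. Rela did not pass, at 0.27 ± 0.10 (adjusted p = 0.0817) at 6 h and 0.19 ± 0.10 (adjusted p = 0.219) at 12 h. At 6 h Rela did pass with array weights (0.27, adjusted p = 0.0437), with an intensity trend (0.27, adjusted p = 0.0435) and without replicate 1 of the BRD0476 group (0.35, adjusted p = 0.0415).

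**Figure D3:**
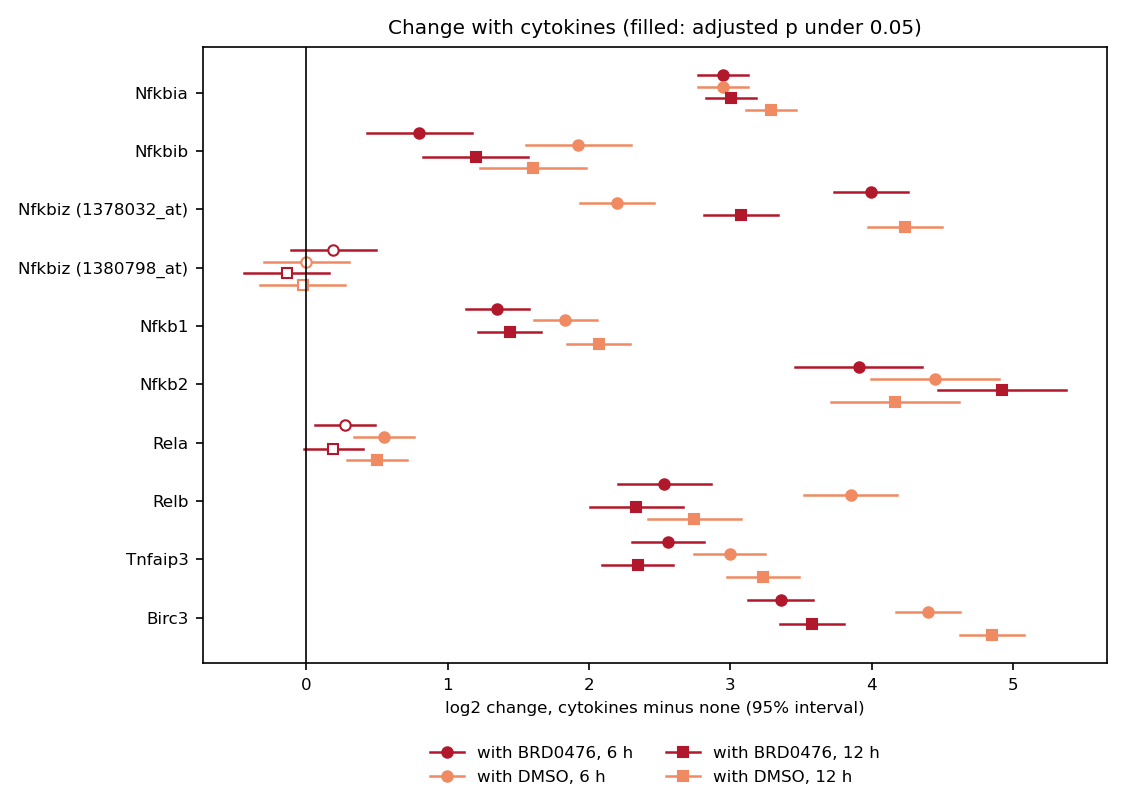
log2 change with cytokines for each probe set, with 95% intervals. Dark red marks are cells with BRD0476 and orange marks cells with DMSO, circles 6 h and squares 12 h, and open marks did not pass an adjusted p of 0.05. Nfkbia stays near 3 in all 4 settings, while Nfkbiz spans 2.20 to 4.23.

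The comparison of BRD0476 with DMSO under cytokines asks how the NF-κB genes differed when the compound was given together with the cytokines. The compound did not move them together. At 6 h Nfkbiz and Nfkbia were higher with BRD0476 and Nfkbib, Birc3, Relb and Nfkb1 lower, and at 12 h Nfkb2 was higher and Nfkbiz, Birc3, Tnfaip3, Nfkb1 and Nfkbia lower. That is 6 of 10 called at 6 h (4 of them lower), where 33.8% of all probe sets were called and 14.6% called lower, and 6 of 10 at 12 h (5 of them lower), where 18.2% were called and 7.97% called lower. The median change over the 10 was -0.28 at 6 h and -0.26 at 12 h, beside 0.00 and 0.02 over all probe sets. Without both replicate 3 arrays with cytokines and DMSO, 8 were called at 6 h, where Nfkb2 (-0.52, adjusted p = 0.0385) and Rela (-0.31, adjusted p = 0.017) were also lower. At 12 h 6 were called, where Rela (-0.33, adjusted p = 0.0252) was called lower and Nfkbia (-0.22, adjusted p = 0.0532) was not called. The direction of these shifts was set by the choice of arrays. The share called over all probe sets was not computed for this setting, so these counts cannot be set against it.

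Nfkbiz, on its probe set 1378032_at, showed the largest differences of the set, and they ran in opposite directions. At 6 h it averaged 8.69 ± 0.08 with cytokines and BRD0476 and 6.88 ± 0.23 with cytokines and DMSO (SD, n = 3 each), and at 12 h 8.04 ± 0.10 with cytokines and BRD0476 and 9.05 ± 0.16 with cytokines and DMSO. The arrays of the 2 groups did not overlap at either time. BRD0476 raised it by 1.81 ± 0.13 (adjusted p = 2.29e-10) at 6 h, 3.51-fold, and lowered it at 12 h by 1.01 ± 0.13 (adjusted p = 2.69e-06), 2.02-fold. The difference between the 2 effects, 12 h minus 6 h, was -2.82 ± 0.18 (adjusted p = 8.59e-10). With the mean of both probe sets the effects were 0.89 (adjusted p = 7.33e-09) at 6 h and -0.55 (adjusted p = 1.35e-05) at 12 h, the second of them smaller in size than that of Birc3, and -1.44 between the times. With cytokines and DMSO its highest level was at 12 h, and with cytokines and BRD0476 at 6 h.

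Birc3 and Nfkb1 were lower with BRD0476 at both times. Birc3 fell by 0.66 ± 0.11 (adjusted p = 4.28e-05) at 6 h and 0.92 ± 0.11 (adjusted p = 1.4e-06) at 12 h, 1.58-fold and 1.89-fold, and Nfkb1 by 0.43 ± 0.11 (adjusted p = 0.00292) and 0.53 ± 0.11 (adjusted p = 0.000884). For both genes the BRD0476 and DMSO arrays did not overlap at either time, and neither effect differed between the times past the threshold (adjusted p = 0.308 and 0.748). Rela lay lower by similar amounts at both times, at -0.24 ± 0.10 (adjusted p = 0.0706) and -0.22 ± 0.10 (adjusted p = 0.151), and did not pass. At 6 h it passed with array weights (-0.28, adjusted p = 0.0259), with arrays centred (-0.27, adjusted p = 0.0332), with quantile normalization (-0.25, adjusted p = 0.0477) or with an intensity trend (-0.24, adjusted p = 0.0415).

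Tnfaip3 was lower with BRD0476 at 12 h. It averaged 10.00 ± 0.04 with cytokines and BRD0476 and 10.09 ± 0.16 with cytokines and DMSO at 6 h, and 9.71 ± 0.16 with cytokines and BRD0476 and 10.45 ± 0.14 with cytokines and DMSO at 12 h (SD, n = 3 each). The effect was -0.09 ± 0.12 (adjusted p = 0.653) with a 95% interval of -0.34 to 0.17 at 6 h and -0.73 ± 0.12 (adjusted p = 9.92e-05) at 12 h, and the 2 differed by -0.65 ± 0.17 (adjusted p = 0.0104). Nfkbia changed direction by small amounts, 0.26 ± 0.08 (adjusted p = 0.0194) at 6 h and -0.30 ± 0.08 (adjusted p = 0.0152) at 12 h, with -0.56 ± 0.12 (adjusted p = 0.00195) between them. Both Nfkbia calls were lost with the 6 compared arrays alone (adjusted p = 0.0853 at 6 h and 0.0995 at 12 h), and the later one also with quantile normalization (-0.27, adjusted p = 0.0514). At 6 h the call was also lost without cytokine and DMSO replicate 1 (0.21, adjusted p = 0.106) or 2 (0.23, adjusted p = 0.08) or cytokine and BRD0476 replicate 3 (0.25, adjusted p = 0.0607), and at 12 h without cytokine and DMSO replicate 3 (-0.22, adjusted p = 0.103) or cytokine and BRD0476 replicate 2 (-0.28, adjusted p = 0.0582).

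Nfkb2 and Relb differed between the times the other way, and Nfkbib did not pass that test. Nfkb2 stood at -0.32 ± 0.22 (adjusted p = 0.293) at 6 h and was higher by 0.84 ± 0.22 (adjusted p = 0.00765) at 12 h, with a difference of 1.16 ± 0.31 (adjusted p = 0.0102) between the times. The 12 h rise was not called without replicate 3 of the cytokine and BRD0476 group (0.69, adjusted p = 0.0543), without replicate 3 of the cytokine and DMSO group (0.59, adjusted p = 0.0663) or with the 6 compared arrays alone (adjusted p = 0.0546). In the 12 h cytokine and BRD0476 group the actin 3′ minus 5′ difference ran from 1.77 to 2.33, against 1.71 to 1.75 with cytokines and DMSO. Its part in the Nfkb2 value, and in the other values of that group, was not tested. Relb fell by 0.53 ± 0.16 (adjusted p = 0.0115) at 6 h and stood at 0.20 ± 0.16 (adjusted p = 0.481) at 12 h, and the 2 effects differed by 0.73 ± 0.22 (adjusted p = 0.0264). Its 6 h fall was not called without replicate 1 (-0.47, adjusted p = 0.0528) or replicate 2 (-0.47, adjusted p = 0.0539) of the cytokine and DMSO group, and the difference between times not without any 1 of 6 of the 12 arrays (0.56 to 0.72, adjusted p = 0.0512 to 0.0858). These were replicates 1 and 2 of the 6 h and 3 of the 12 h cytokine and DMSO group, and replicate 2 of the 6 h and 2 and 3 of the 12 h cytokine and BRD0476 group. Nfkbib fell by 0.71 ± 0.18 (adjusted p = 0.00331) at 6 h and stood at -0.07 ± 0.18 (adjusted p = 0.873) at 12 h, with no call on the difference between them (0.64 ± 0.25 (adjusted p = 0.0899)). That difference was called without both replicate 3 arrays with cytokines and DMSO (0.65, adjusted p = 0.024), with array weights (0.74, adjusted p = 0.017), with the replicate block on the 6 cytokine and DMSO arrays alone (adjusted p = 0.00864), and without replicate 3 of the 6 h (0.86, adjusted p = 0.0107) or replicate 2 of the 12 h (0.78, adjusted p = 0.0409) cytokine and DMSO group or replicate 1 of the 12 h cytokine and BRD0476 group (0.83, adjusted p = 0.0208).

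In all, the effect of BRD0476 under cytokines differed between 12 and 6 h for 5 of 10 probe sets, where 17.6% of all probe sets were called. Nfkb2 and Relb moved upward between the times, and Nfkbiz, Tnfaip3 and Nfkbia downward.

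**Figure D4:**
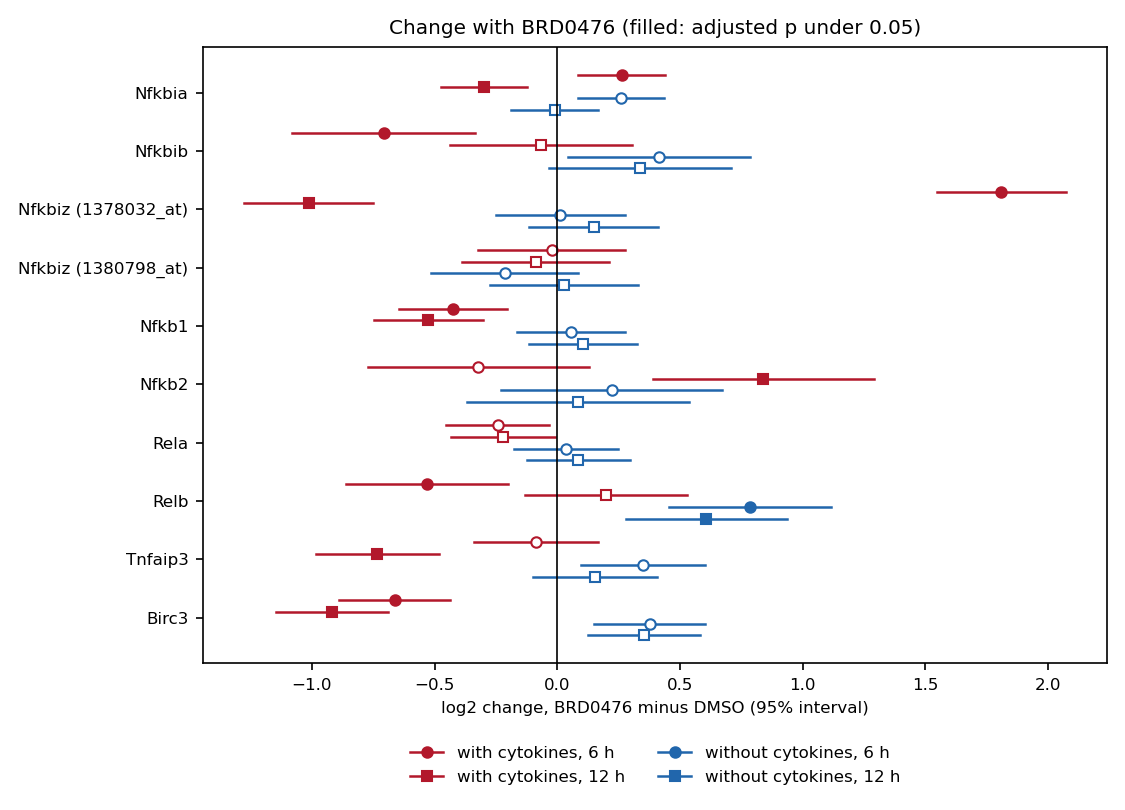
log2 change with BRD0476 for each probe set, with 95% intervals, in cells with cytokines (red) and without (blue) at 6 h (circles) and 12 h (squares). Filled marks passed an adjusted p of 0.05. Nfkbiz lies at 1.81 and -1.01 in cells with cytokines, and Relb has the filled marks in cells without.

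Without cytokines, BRD0476 raised Relb and no other gene of the set past the threshold. Relb averaged 6.76 ± 0.21 with BRD0476 and 5.98 ± 0.23 with DMSO at 6 h, and 6.96 ± 0.10 with BRD0476 and 6.36 ± 0.33 with DMSO at 12 h (SD, n = 3 each). All BRD0476 arrays lay above all DMSO arrays at each time, by 0.78 ± 0.16 (adjusted p = 0.00933) and 0.61 ± 0.16 (adjusted p = 0.0415) on average, or 1.72-fold and 1.52-fold. Of the 10 probe sets 1 was thus called at each time, where 1.72% and 2.57% of all probe sets were called. The 6 h call was lost without replicate 1 of the BRD0476 group (0.71, adjusted p = 0.0639) or replicate 3 of the DMSO group (0.68, adjusted p = 0.0605), and the 12 h call without any 1 of the BRD0476 replicates or without DMSO replicate 1 or 3 (0.50 to 0.66, adjusted p = 0.074 to 0.223). Both were lost with the 6 compared arrays alone (adjusted p = 0.101 and 0.0763). At 6 h Birc3 stood at 0.38 ± 0.11 (adjusted p = 0.0934), Tnfaip3 at 0.35 ± 0.12 (adjusted p = 0.191), Nfkbib at 0.42 ± 0.18 (adjusted p = 0.344) and Nfkbia at 0.26 ± 0.08 (adjusted p = 0.153), and at 12 h Birc3 at 0.35 ± 0.11 (adjusted p = 0.1). At 6 h Tnfaip3 passed with array weights (0.44, adjusted p = 0.00956) or without DMSO replicate 2 (0.53, adjusted p = 0.0121) and Nfkbia with array weights (0.28, adjusted p = 0.0422), and Birc3 passed at 12 h without BRD0476 replicate 1 (0.50, adjusted p = 0.0124) or DMSO replicate 2 (0.47, adjusted p = 0.0334).

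The interaction compares the cytokine change with BRD0476 and that with DMSO directly. At 6 h it was called for 5 of 10 probe sets, 4 of them lower, where 24.6% of all probe sets were called and 10.0% lower. Relb rose by 2.53 with BRD0476 and 3.85 with DMSO, a difference of -1.32 ± 0.22 (adjusted p = 0.000119). The effects of BRD0476 with and without cytokines both enter such a difference, and for Relb at 6 h they were -0.53 and 0.78. They were -0.71 and 0.42 for Nfkbib and -0.66 and 0.38 for Birc3, where those without cytokines were not called. The differences were -1.12 ± 0.25 (adjusted p = 0.00191) for Nfkbib, -1.04 ± 0.15 (adjusted p = 2.43e-05) for Birc3 and -0.48 ± 0.15 (adjusted p = 0.0213) for Nfkb1, and 1.80 ± 0.18 (adjusted p = 1.27e-07) for Nfkbiz. At 12 h it was called for 4 of 10, all lower, where 10.1% were called and 4.79% lower: -1.27 ± 0.15 (adjusted p = 4.19e-06) for Birc3, -1.16 ± 0.18 (adjusted p = 8.36e-05) for Nfkbiz, -0.89 ± 0.17 (adjusted p = 0.00105) for Tnfaip3 and -0.63 ± 0.15 (adjusted p = 0.00709) for Nfkb1. Nfkb2 stood higher at 12 h, at 0.76 ± 0.31 (adjusted p = 0.148), and passed with array weights (0.83, adjusted p = 0.0366). With the mean of both probe sets, the Nfkbiz differences were 0.99 at 6 h and -0.64 at 12 h, both called. The 6 h Nfkb1 call was lost without any 1 of 5 arrays (-0.45 to -0.41, adjusted p = 0.0505 to 0.0638), namely replicate 1 of the cytokine and BRD0476, the cytokine and DMSO and the DMSO groups and replicates 2 and 3 of the BRD0476 group. Without DMSO replicate 2, Tnfaip3 was also called at 6 h (-0.61, adjusted p = 0.00277, against -0.43 and adjusted p = 0.071 with all arrays), as it was with array weights, centring, quantile normalization or an intensity trend (-0.48 to -0.43, adjusted p = 0.0103 to 0.0447). Without both replicate 3 arrays with cytokines and DMSO, Nfkb2 was called at 6 h (-0.74, adjusted p = 0.0349) and Nfkbib at 12 h (-0.62, adjusted p = 0.0316). For both genes the direction of this shift was set by the choice of arrays.

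As a share of the log2 rise in DMSO, the rise with BRD0476 was 100.1% for Nfkbia, 87.8% for Nfkb2, 85.5% for Tnfaip3, 76.3% for Birc3, 73.8% for Nfkb1, 65.8% for Relb, 49.6% for Rela and 41.6% for Nfkbib at 6 h, and 181.9% for Nfkbiz. At 12 h it was 118.1% for Nfkb2, 91.3% for Nfkbia, 85.1% for Relb, 74.8% for Nfkbib and 73.8%, 72.6% and 72.5% for Birc3, Nfkbiz and Tnfaip3, with the lowest shares in Nfkb1 (69.6%) and Rela (38.7%). The Nfkbiz shares are those of its probe set 1378032_at. These shares are descriptions without a test of their own, and they depend on the levels without cytokines as well. For Relb at 12 h the level under cytokines averaged 9.30 with BRD0476 and 9.10 with DMSO. The Relb level without cytokines averaged 6.96 and 6.36. A list of 14 measured interferon-driven genes was used for comparison. Their median rise with cytokines was 5.86 at 6 h and 5.85 at 12 h in DMSO, and 2.74 and 3.12 with BRD0476. All 14 were called lower with BRD0476 under cytokines at both times, with median changes (not shares) of -2.84 at 6 h and -2.14 at 12 h. Over all named genes 18.3% and 9.75% were called lower, and the medians were 0.00 and 0.04.

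Ordered by level, the 4 groups with cytokines stood above the 4 without for 9 of the 10 probe sets. The share of all probe sets with this order was not computed, so the count cannot be set against it. In Nfkbiz each of the cytokine groups stood apart from its neighbour in the order, which ran cytokine and DMSO at 12 h, cytokine and BRD0476 at 6 h, cytokine and BRD0476 at 12 h, and cytokine and DMSO at 6 h. In Nfkb2 the cytokine and BRD0476 group at 12 h stood apart at the top and the other cytokine groups overlapped their neighbours. In Birc3 the 2 cytokine and DMSO groups overlapped each other and lay above both cytokine and BRD0476 groups. In Rela every neighbour overlapped the next.

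Other genes of NF-κB signalling were read from a list of 52, of which 44 were measured. With cytokines in DMSO, 24 rose and 7 fell at 6 h and 21 rose and 7 fell at 12 h, with median changes of 0.45 and 0.28 beside 0.00 and -0.04 over all named genes. Of the named genes, 23.4% were called higher and 26.6% lower at 6 h, and 15.0% and 28.5% at 12 h. Map3k8, the kinase that is released from p105, rose by 3.06 ± 0.13 (adjusted p = 3e-14) at 6 h and 3.37 ± 0.13 (adjusted p = 6.1e-15) at 12 h. Tnip1, a partner of A20, rose by 2.05 ± 0.10 (adjusted p = 2.87e-13) and 2.01 ± 0.10 (adjusted p = 5.05e-13), and Optn, a ubiquitin-binding adaptor, by 1.97 ± 0.08 (adjusted p = 1.7e-14) and 1.81 ± 0.08 (adjusted p = 8.79e-14). Irak2, a kinase of the IL-1 receptor complex, rose by 2.14 ± 0.13 (adjusted p = 9.95e-12) at 6 h, and Zc3h12a, an RNase that degrades inflammatory transcripts, by 3.24 ± 0.22 (adjusted p = 1.11e-10) at 12 h.

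With BRD0476 under cytokines, 8 of the 44 were higher and 20 lower at 6 h, and 1 was higher and 14 lower at 12 h, with medians of -0.24 and -0.15 beside 0.00 and 0.04 over all named genes. Over all named genes 23.5% were called higher and 18.3% lower at 6 h, and 14.2% and 9.75% at 12 h. Irak2 fell by 1.37 ± 0.13 (adjusted p = 2.94e-08) at 6 h, as did Rnf31, the catalytic subunit of the linear ubiquitin ligase, by 0.92 ± 0.12 (adjusted p = 2.48e-06). Traf2, an adaptor of the TNF receptor, fell by 0.91 ± 0.09 (adjusted p = 1.07e-07). Cyld, which removes ubiquitin chains from pathway adaptors, fell by 0.91 ± 0.10 (adjusted p = 2.76e-07) at 6 h and 1.01 ± 0.10 (adjusted p = 1.27e-07) at 12 h. At 12 h Map3k8 fell by 1.57 ± 0.13 (adjusted p = 8.32e-09), Ripk1, a kinase of the TNF receptor complex, by 0.96 ± 0.07 (adjusted p = 5.14e-10) and Tank, an adaptor of IKK-related kinases, by 0.91 ± 0.10 (adjusted p = 3.26e-07). In the interaction 5 were higher and 17 lower at 6 h and 0 higher and 8 lower at 12 h. Of all probe sets, 24.6% were called at 6 h (10.0% lower) and 10.1% at 12 h (4.79% lower). Among the 17 was Irak3, a brake on IL-1 signalling, at -0.91 ± 0.19 (adjusted p = 0.000779) at 6 h. Without cytokines, 1 of 44, Traf5, was called at each time, lower by 0.56 at 6 h and 0.53 at 12 h, where 1.72% and 2.57% of all probe sets were called. Shares over the named genes were not computed for the interaction or for BRD0476 without cytokines. Those over all probe sets, which include unnamed ones, are thus not a like base for the list. Other probe sets of Optn, Cyld and Ripk1 had changes of the same sign with cytokines in DMSO and with BRD0476 under cytokines at both times. Of these, Optn (-0.25, adjusted p = 0.225) and Cyld (-0.51, adjusted p = 0.0737) did not pass with BRD0476 at 12 h.

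Of 29 genes known to be driven by NF-κB, all measured, 23 rose with cytokines in DMSO at each time and none fell, with medians of 1.97 at 6 h and 1.89 at 12 h, where 23.4% and 15.0% of all named genes were called higher and their medians were 0.00 and -0.04. The largest rises were in Ltb, a TNF-family cytokine (7.62 ± 0.16 and 7.32 ± 0.16), the chemokine Cxcl1 (6.96 ± 0.23 and 8.73 ± 0.23) and the adhesion molecule Icam1 (6.84 ± 0.18 and 7.15 ± 0.18), with Cxcl2 at 5.67 ± 0.19 at 6 h and the receptor Cd40 at 6.65 ± 0.18 at 12 h. With BRD0476 under cytokines, 3 of the 29 were higher and 18 lower at 6 h, and 0 were higher and 16 lower at 12 h, with medians of -0.56 and -0.60. Of all named genes 18.3% and 9.75% were called lower, with medians of 0.00 and 0.04. The 3 that were higher at 6 h, named after their values were seen, were Ier3 (1.48 ± 0.08), Tnf (0.98 ± 0.17) and Cxcl1 (0.73 ± 0.23). At 12 h Tnf (-1.56 ± 0.17 (adjusted p = 5.76e-07)) and Cxcl1 (-1.18 ± 0.23 (adjusted p = 0.000682)) were lower and Ier3 was not called (0.06 ± 0.08 (adjusted p = 0.747)). The other Tnf probe set, 1387691_at, was not called at 6 h (-0.19, adjusted p = 0.607). The largest falls were in Lcn2, an iron-trapping secreted protein (-2.76 ± 0.27 (adjusted p = 5.05e-08)), and the chemokine Ccl5 (-2.73 ± 0.17 (adjusted p = 3.51e-11)) at 6 h, and in the chemokines Ccl2 (-2.32 ± 0.13 (adjusted p = 9.49e-12)) and Cxcl2 (-2.23 ± 0.19 (adjusted p = 1.08e-08)) at 12 h. Gadd45b, which restrains JNK signalling, fell by 1.84 ± 0.11 (adjusted p = 1.56e-11) and Icam1 by 1.75 ± 0.18 (adjusted p = 1.06e-07) at 6 h. Ccl5 fell by 1.71 ± 0.17 (adjusted p = 8.81e-08) at 12 h. In the interaction 2 of the 29 were higher and 17 lower at 6 h, and 0 higher and 15 lower at 12 h. Of all probe sets 24.6% and 10.1% were called, 10.0% and 4.79% lower. The largest differences were in Ccl5 (-2.93), Lcn2 (-2.62), Gadd45b (-2.06) and Icam1 (-2.03) at 6 h. At 12 h they were in Ccl2 (-2.41), Cxcl2 (-2.25), Ccl5 (-2.20) and the chemokine Cx3cl1 (-1.66).

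**Figure D5:**
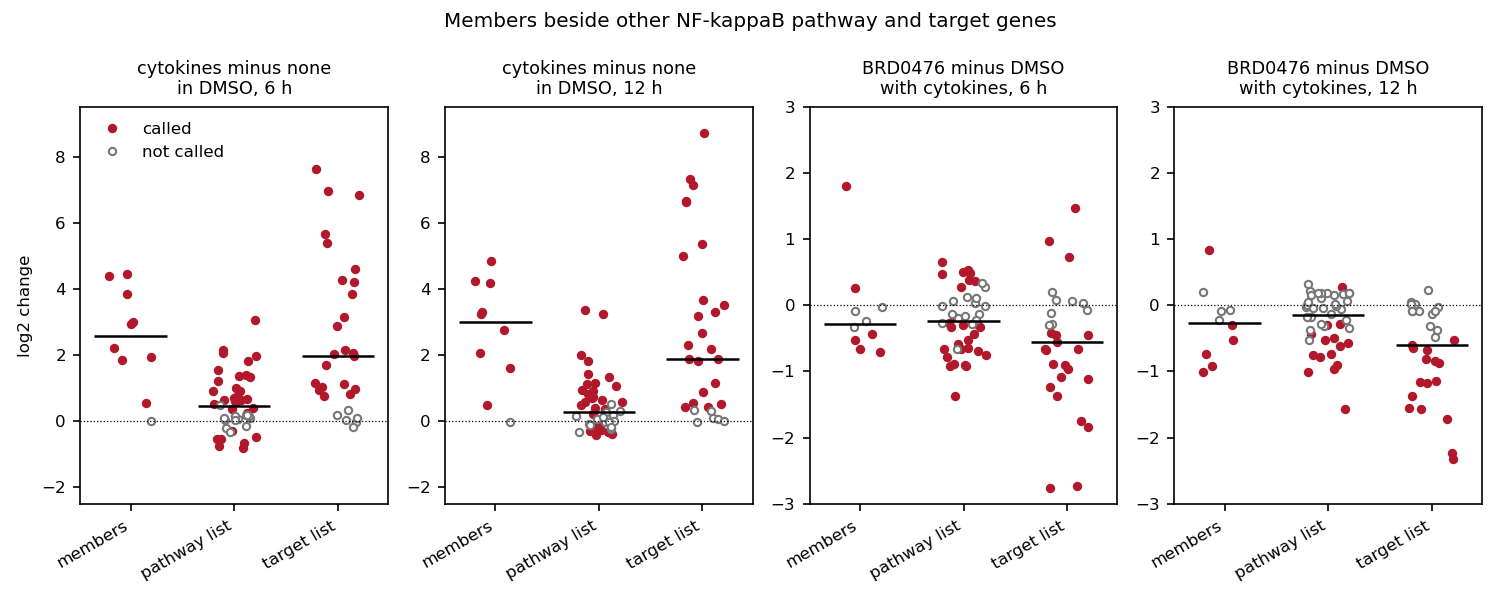
log2 changes of the 10 member probe sets, the 44 other pathway genes and the 29 target genes with cytokines in DMSO and with BRD0476 under cytokines. Points are probe sets, filled where the adjusted p was under 0.05, and lines are medians. The medians with cytokines at 6 h are 2.57, 0.45 and 1.97, and all medians with BRD0476 lie below 0.

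The genes whose group means ran most like each member were found over the 8 groups among 1305 other genes whose group means varied by an SD of at least 0.5. They are given as a description, since the 8 means fall into a set with and a set without cytokines. Nearest to Nfkbia were Cd69 (r = 0.999), Cxcl1 (0.998) and S100a5 (0.997), and nearest to Nfkb2 were Ebi3 (0.997), Tnip1 (0.995) and Itgav (0.994). Ubd and Fas were among the 3 nearest to both Birc3 (0.998 and 0.996) and Tnfaip3 (0.996 and 0.995). Nearest to Nfkbiz were Dlgap1 (0.990), Rabgap1l (0.982) and Baiap2l1 (0.981). Among the members, Tnfaip3 and Birc3 were the most alike over the group means (r = 0.995) and Nfkbiz and Rela the least (0.818).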

How the data were processed

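Each array's values were deposited as linear intensity, 1 per probe set, made with RMA per the submitters' processing notes. RMA corrects background, normalizes between arrays and sums up the probes of a probe set, which makes arrays comparable but compresses low values. Its version, the chip definition and the return to the linear scale are not given in the sources used here. The deposited intensities were taken to log2 with no further scaling, and 57 control probe sets were left out. Of 31042 probe sets, 20826 had 1 gene symbol, 436 several and 9780 none. limma 3.58.1 in R 4.3.3 fitted 8 group means (16 residual and 4.632 prior degrees of freedom), and 13 contrasts were adjusted by Benjamini and Hochberg over all probe sets, with calls at an adjusted p under 0.05. Changes carry a standard error. With 3 arrays against 3 an exact permutation test cannot give a p below 0.1, so calls rest on limma. The number of arrays limits precision, with a median standard error of 0.111. All member probe sets are named. Of the pathway and target lists, up to 4 called genes with the largest change were named in each comparison of cytokines in DMSO, of BRD0476 with cytokines and of the interaction, on the probe set with the highest mean. The 3 genes most like each member were found by Pearson correlation. Members and lists, with an interferon list and cell type markers, were chosen with earlier results of these data known. The steps were tested on simulated data. Alternatives were probe-set choice, dim probe sets left out, centring, quantile normalization, array weights, a replicate block, an intensity trend, a pseudocount of 16, the compared arrays alone, and each array left out in turn.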

Additional observations from a re-analysis of the deposited data

Results flagged for a closer look

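The effect of cytokines in DMSO differed between 12 and 6 h, by a test of the difference itself in limma, for Nfkbiz (2.04 ± 0.18 (adjusted p = 3.39e-08)), Relb (-1.10 ± 0.22 (adjusted p = 0.000893)), Birc3 (0.45 ± 0.15 (adjusted p = 0.0404)) and Nfkbia (0.34 ± 0.12 (adjusted p = 0.048)). The effect of BRD0476 with cytokines differed between the same times for Nfkbiz (-2.82 ± 0.18 (adjusted p = 8.59e-10)), Nfkb2 (1.16 ± 0.31 (adjusted p = 0.0102)), Relb (0.73 ± 0.22 (adjusted p = 0.0264)), Tnfaip3 (-0.65 ± 0.17 (adjusted p = 0.0104)) and Nfkbia (-0.56 ± 0.12 (adjusted p = 0.00195)). Each value is the 12 h effect minus the 6 h effect on the log2 scale. Both sets of differences use the cytokine and DMSO arrays of both times. The Birc3 difference came mostly from its DMSO group without cytokines, which averaged 5.34 at 6 h and 4.98 at 12 h.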

How the results depend on the processing

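Of 2394 values recomputed under the alternatives, 2303 kept their side of the threshold, 57 lost a call and 34 gained one. The sign changed in 69, none of them called before or after, and all with a reported size of at most 0.13. Counts of called probe sets moved by over 1.5 times in these cases, with causes not tested. For BRD0476 without cytokines at 6 h (1 called), there were 3 with array weights, 2 with the replicate block and 0 with only the arrays compared, and at 12 h (1 called) 2 with the replicate block and 0 with only the arrays compared. The cytokine effect at 12 against 6 h (4 called) gave 2 with only the arrays compared, and DMSO at 12 against 6 h (0 called) gave 1, Relb, with array weights. The replicate block added Birc3 without cytokines at both times (0.38, adjusted p = 0.0386, and 0.35, adjusted p = 0.0426) and lost Nfkbia in the cytokine effect at 12 against 6 h (adjusted p = 0.0589). The rule for pairing by replicate number was that all same-numbered arrays deviate together with r above 0.1. No comparison met it, and 24 of 84 such pairs of arrays did. Yet 6 of 6 arrays deviated most like their own number for cytokines against none in DMSO at 6 h and with BRD0476 at 12 h. For BRD0476 with cytokines at 6 h 5 of 6 did, and in the other comparisons of 2 groups 0 to 2 of 6. The cytokine and DMSO groups at 12 and 6 h were 1 of 2 pairs of groups, of 28, that met the rule. A replicate block on these 6 arrays alone gave 4 calls for the cytokine effect at 12 against 6 h and 6 for the BRD0476 effect. With 1 array left out, the counts ran from 9 to 9 for cytokines in DMSO at 6 h and from 9 to 9 at 12 h, and with BRD0476 from 8 to 9 and from 8 to 8. For BRD0476 with cytokines they ran from 4 to 7 at 6 h and from 5 to 6 at 12 h, and without cytokines from 0 to 2 and from 0 to 2. For the interaction they ran from 4 to 6 at 6 h and from 4 to 4 at 12 h. For the change with time they ran from 2 to 4 for the cytokine effect, 4 to 6 for the BRD0476 effect and 0 to 0 for DMSO. Signal over background is not known for single probe sets here, so values below the median limit how well a fold is measured. Such values were those of Nfkbiz 1378032_at without cytokines and of its other probe set in every group. So were those of Birc3 with DMSO alone at both times and with BRD0476 alone at 12 h (5.05, 5.46 and 5.49). Nfkb2 was below the median in DMSO replicate 3 at 6 h (5.48). The lowest Birc3 rise in DMSO under the alternatives was 3.94 at 6 h and 4.28 at 12 h.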
